A study of Mus musculus with 4 samples.

Results

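The 28 genes described here encode most enzymes of cholesterol synthesis and of fatty acid synthesis and desaturation, together with 4 genes that regulate these pathways or carry sterols. They were chosen by gene symbol from lists of pathway genes, with earlier results of these data known. Each of the 28 had exactly 1 row among the 38921 gene intervals of the deposited tables. 16 genes form the sterol arm, 8 the fatty acid arm, and the other 4 are Srebf1, Srebf2, Insig1 and Stard4. All 28 passed the filter on low counts, so none was lost before testing. RNA came from pancreatic fibroblasts of mixed-strain mice grown in medium with 10% serum, and was read from 2 libraries of wild type and 2 libraries of KPC animals, the groups differing in genotype alone as far as the labels go. KPC is the usual name of a pancreatic cancer model in which engineered cancer alleles are switched on by Cre under a Pdx1 promoter, which acts in the pancreatic epithelium and not in fibroblasts; the labels give neither these alleles nor ages. The replicates are called biological, but no label ties them to separate animals or cultures, so each p-value reflects no more than how these particular libraries vary. Counts summed to 53232634 (replicate 1) and 22302141 (replicate 2) for wild type and to 57926327 and 68312367 for KPC, and levels are given below as CPM (a gene's count divided by its library's scaled total and multiplied by 1000000) after scaling.

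Cholesterol is built from acetyl-CoA through mevalonate, isoprenoid units and squalene to lanosterol, which is then trimmed to cholesterol. Fatty acids are built from the same acetyl-CoA by carboxylation, chain growth, elongation and desaturation. Both pathways are controlled by the SREBP transcription factors, which are held in the endoplasmic reticulum by Insig proteins when sterols are plentiful and are cut free when sterols run short. SREBP-2, the product of Srebf2, is known mainly for the sterol genes and SREBP-1, the product of Srebf1, mainly for the fatty acid genes, and both usually act next to the factor NF-Y, which binds the sequence CCAAT.

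The promoter windows of the sterol and fatty acid arms held CCAAT in different shares, a difference that was not tested. RefSeq promoter windows (GRCm38.p6, 250 bases before to 50 after a gene start, 300 in all) were matched for 21 of the 28 genes; Fdps, Fdft1, Sqle, Scd1, Scd2, Fads1 and Stard4 had none, so the fatty acid arm is counted without its Scd genes. A gene with several windows was counted once if any held the motif. CCAAT, on either strand, lay in 12 of 13 sterol arm genes (92.3%), with Acat2 as the exception, in 2 of 5 fatty acid arm genes (40.0%) and in all 3 regulators matched, Insig1, Srebf1 and Srebf2. Among all 27025 genes with a window 41.1% held it, and among all single windows 37.4%. The stricter SREBP element TCACNCCAC, where N is any base, lay in Hmgcs1 alone, against 1.44% of all genes, and the E-box CACGTG lay in 3 of 13 sterol arm genes, 0 of 5 fatty acid arm genes and Insig1, against 8.09%. Such matches describe letters, not binding. The 6 sequences here, each the 250 bases before the gene start on the gene's own strand, carry CCAAT or its reverse complement ATTGG in capitals, and in Hmgcs1 the SREBP element TCACCCCAC too. Hmgcs1, Mvd, Idi1 and Ebp are sterol genes with higher mean levels in KPC, while Mvk and Fasn are shown because they hold 5 and 3 boxes and did not have higher levels.
Hmgcs1, chr13:119690101-119690350, + strand: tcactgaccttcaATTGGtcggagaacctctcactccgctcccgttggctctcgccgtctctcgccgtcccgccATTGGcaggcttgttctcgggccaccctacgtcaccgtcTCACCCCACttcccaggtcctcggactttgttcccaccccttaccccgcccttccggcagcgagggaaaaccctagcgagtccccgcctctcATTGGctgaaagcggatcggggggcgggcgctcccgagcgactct
Idi1, chr13:8885356-8885605, + strand: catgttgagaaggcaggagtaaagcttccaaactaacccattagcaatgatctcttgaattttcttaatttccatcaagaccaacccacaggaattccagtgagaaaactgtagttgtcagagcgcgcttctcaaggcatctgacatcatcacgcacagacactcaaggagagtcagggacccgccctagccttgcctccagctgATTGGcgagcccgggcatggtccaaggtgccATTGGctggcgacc
Mvd, chr8:122443423-122443672, - strand: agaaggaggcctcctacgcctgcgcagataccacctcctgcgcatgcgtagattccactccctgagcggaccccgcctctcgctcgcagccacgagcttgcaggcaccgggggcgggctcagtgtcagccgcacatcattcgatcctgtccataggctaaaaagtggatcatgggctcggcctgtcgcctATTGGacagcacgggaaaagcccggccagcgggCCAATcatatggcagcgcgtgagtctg
Ebp, chrX:8193513-8193762, - strand: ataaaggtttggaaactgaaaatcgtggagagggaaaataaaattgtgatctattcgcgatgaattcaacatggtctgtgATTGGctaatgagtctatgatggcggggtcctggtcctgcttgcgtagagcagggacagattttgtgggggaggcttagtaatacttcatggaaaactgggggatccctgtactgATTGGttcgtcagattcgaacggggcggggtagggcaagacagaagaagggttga
Mvk, chr5:114444019-114444268, + strand: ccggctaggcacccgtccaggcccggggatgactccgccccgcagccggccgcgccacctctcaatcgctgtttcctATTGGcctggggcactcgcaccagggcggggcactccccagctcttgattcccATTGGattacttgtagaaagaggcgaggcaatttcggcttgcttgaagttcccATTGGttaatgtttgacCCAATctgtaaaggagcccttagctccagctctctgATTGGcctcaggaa
Fasn, chr11:120824548-120824797, - strand: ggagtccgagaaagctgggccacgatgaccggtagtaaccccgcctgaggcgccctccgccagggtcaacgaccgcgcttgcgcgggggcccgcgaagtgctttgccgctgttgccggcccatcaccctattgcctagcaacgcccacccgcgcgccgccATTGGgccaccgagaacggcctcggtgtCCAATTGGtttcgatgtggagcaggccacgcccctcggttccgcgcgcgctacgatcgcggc
In the Fasn sequence 2 of the 3 matches share bases. Within this window the boxes lie both in genes with higher KPC means and in genes without.

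Markers of other cell types were present in differing amounts, so the libraries stood apart in more than the synthesis genes, and fewer cells of a type and less RNA per cell cannot be told apart in such bulk libraries. All 10 fibroblast markers were detected in each library, though Lum had only 9 counts in wild type 1. Of the 10, 2 were separate and higher in KPC and 2 separate and lower, close to the 20.6% and 20.5% of all rows tested. Of their log2 fold changes 7 were positive (48.8% of all rows tested were) and 3 negative. Col1a1 had 4088 and 4716 CPM in the wild type libraries against 4802 and 5245 CPM in the KPC libraries. Thy1 had 174 and 89.3 against 180 and 216 CPM, and Dcn lay between 14.4 and 63.1 CPM. Vim had 3695 and 2157 CPM in the wild type libraries against 1731 and 1698 CPM in the KPC libraries, and Pdgfrb 194 and 132 against 69.1 and 118 CPM. All 16 macrophage markers were higher in both KPC libraries (20.6% of all rows tested were), with summed levels of 105 and 325 CPM in the wild type libraries against 1285 and 2570 CPM in the KPC libraries and none at 0. Lyz2 alone gave 6.24 and 132 against 629 and 1416 CPM of these sums. Of 12 epithelial markers 4 were higher in both KPC libraries (20.6% of all rows tested were), 0 lower in both (20.5%), and 8 overlapped. Their sums were 66.0 and 743 CPM in the wild type libraries against 2069 and 1497 CPM in the KPC libraries, with none at 0. Spp1 alone gave 29.7 and 310 against 860 and 1050 CPM of these sums. Cldn4 had 0.228 and 44.6 against 8.40 and 16.8 CPM, and its log2 fold change of -0.82 was the 1 negative value. The macrophage sum was highest in KPC 2, the mean level of the sterol arm in KPC 1, where the epithelial sum was also highest. Endothelial markers summed to 732 CPM in wild type 1, with no other library above 47.4 CPM, and endocrine markers to 955 CPM in wild type 2, with no other library above 3.92 CPM. Of 7 adipocyte markers, Cfd had 0 counts in all libraries, and the sums were 29.7 and 17.5 CPM in the wild type libraries against 12.7 and 17.1 CPM in the KPC libraries. Fabp4 alone gave 24.5 and 12.8 against 8.74 and 13.6 CPM of these sums. Among the 5 tested, 0 were separate and higher (20.6% of all rows) and 2, Lep and Cidec, separate and lower (20.5%). Proliferation genes had 11 of 12 positive (48.8% of all rows tested were) and a median of 0.25. Of the 12, 4 were separate and higher in KPC (20.6% of all rows) and 0 separate and lower (20.5%). An unadjusted edgeR p under 0.05 was reached by 2, both higher (4.73% of all rows). Their sums of 449 and 354 against 423 and 529 CPM overlapped between groups. The part of these markers and of proliferation in the values of the synthesis genes was not tested.

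Most sterol genes had higher mean levels in KPC, and the fatty acid arm was split. In the sterol arm 14 of 16 genes had a positive log2 fold change, with a median of 0.63, against 48.8% of the 23046 rows tested, whose median was -0.01. In the fatty acid arm 6 of 8 were positive (4 of 8 with upper quartile scaling, where Acaca and Fads2 were just under 0) with a median of 0.20, a figure that rests on Scd2, Scd1, Acly and Elovl6 beside 4 genes near 0. The sterol median lay 0.44 above the fatty acid median. Both KPC libraries exceeded both wild type libraries for 8 of 16 sterol genes, 3 of 8 fatty acid genes and 2 of the 4 others, 13 of 28 in all, against 20.6% of all rows, and 0 of 28 lay below in both, against 20.5%. The genes were chosen with earlier results of these data known, so these shares describe them and are no test. None of the 28 passed edgeR's quasi-likelihood test at an adjusted p of 0.05, in which 0% of all rows were called higher and 0% lower. Their edgeR adjusted p ran from 0.425 (Dhcr7) to 0.996 (Acaca). At an unadjusted p under 0.05 edgeR took 7 of the 28, all higher (4 sterol genes, 2 fatty acid genes and Stard4), against 4.73% of rows higher and 3.94% lower. DESeq2 called 1 of the 28, Dhcr7, against 1.44% of rows called higher and 1.28% lower.

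**Figure D1:**
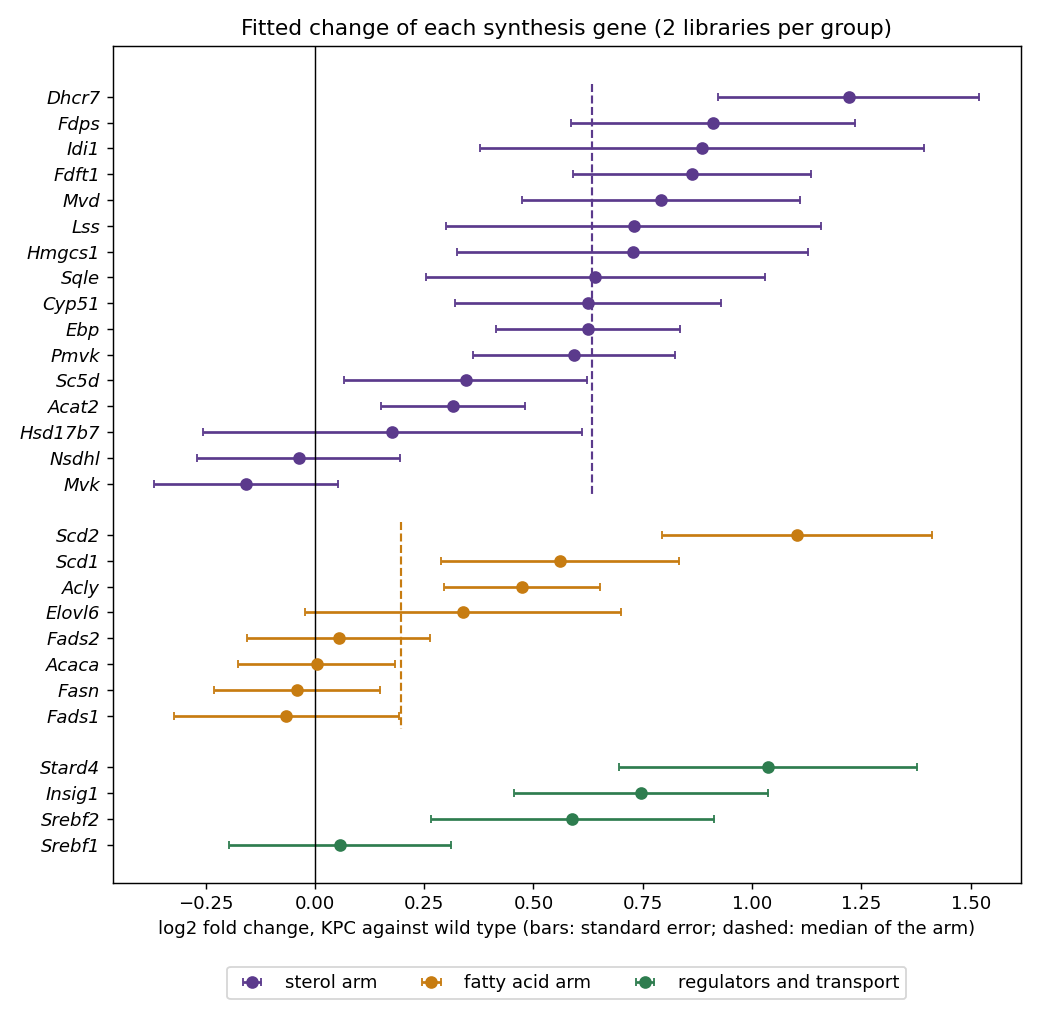
Fitted log2 fold change of KPC against wild type for each gene (points) with its standard error (bars), grouped by pathway arm and ordered by size within it; dashed lines mark the arm medians. The sterol median is 0.63 and the fatty acid median 0.20, and Mvk, Nsdhl, Fasn and Fads1 lie below 0.

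The mevalonate steps turn acetyl-CoA into the isoprenoid unit that feeds sterols. Acat2, whose product joins acetyl-CoA units at the start of the route, gave 45.5 and 44.1 CPM in wild type 1 and 2 against 58.6 and 53.0 CPM in KPC 1 and 2, a log2 fold change of 0.32 ± 0.17 (SE; edgeR adjusted p = 0.643). Both KPC values were higher, by a small margin. Hmgcs1, the synthase gene of the next step, had 71.6 and 43.2 CPM in the wild type libraries against 123 and 67.1 CPM in the KPC libraries (log2 fold change 0.73 ± 0.40). Wild type 1 lay above KPC 2, so the groups overlapped; Hmgcs1 is given library by library as an example chosen after its values were seen. Of the 2 kinases and the decarboxylase that follow, the mevalonate kinase gene Mvk was lower on average in KPC and overlapped (log2 fold change -0.16 ± 0.21). The phosphomevalonate kinase gene Pmvk had 15.7 and 13.0 CPM in the wild type libraries against 24.6 and 18.6 CPM in the KPC libraries. For Mvd, the decarboxylase gene, the wild type libraries gave 14.8 and 9.62 CPM and the KPC libraries 25.2 and 17.3 CPM. Neighbouring steps had unlike values, with Pmvk and Mvd higher in both KPC libraries (log2 fold changes 0.59 ± 0.23 and 0.79 ± 0.32) and the KPC values of Mvk inside its wild type range. Idi1, which encodes the isomerase that makes the second isoprenoid unit, had the widest spread in the arm: its highest library, KPC 1, was 3.61 times its lowest, wild type 2, and KPC 2 lay below wild type 1. Without KPC replicate 1 the log2 fold changes were 0.23 for Hmgcs1, 0.39 for Pmvk, 0.51 for Mvd and 0.14 for Idi1, and without wild type replicate 2 they were 0.41, 0.46, 0.52 and 0.54.

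Fdps and Fdft1 encode the enzymes that join isoprenoid units into farnesyl diphosphate and then squalene. Fdps (chr3:89093592-89101967, mm10) was the sterol gene with the highest level per kilobase of exon (union of GENCODE M21 exons), at 30.7 CPM per kilobase averaged over the 4 libraries. It had 96.1 and 83.3 CPM in the wild type libraries against 217 and 120 CPM in the KPC libraries, means of 89.7 ± 9.06 and 169 ± 68.2 CPM (SD, n = 2 each), and a log2 fold change of 0.91 ± 0.32 (SE; edgeR adjusted p = 0.551). Both KPC libraries were above both wild type libraries, and KPC 1 was 1.80 times KPC 2. Fdft1 gave 39.9 and 34.2 CPM in the wild type libraries against 82.1 and 52.7 CPM in the KPC libraries (log2 fold change 0.86 ± 0.27, edgeR adjusted p = 0.537), again without overlap. Sqle, the squalene epoxidase gene, and Lss, the gene of the cyclase that forms lanosterol, had positive log2 fold changes of 0.64 ± 0.39 and 0.73 ± 0.43. In both of them KPC 1 was highest, wild type 2 lowest, and KPC 2 slightly below wild type 1. Leaving out KPC replicate 1 gave log2 fold changes of 0.43 for Fdps, 0.51 for Fdft1, 0.30 for Sqle and 0.19 for Lss, and leaving out wild type replicate 2 gave 0.81, 0.76, 0.27 and 0.41.

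Of the 6 genes described here that act after lanosterol, Cyp51, Dhcr7 and Ebp were higher in both KPC libraries and Sc5d, Hsd17b7 and Nsdhl overlapped between groups. Cyp51, the lanosterol demethylase gene, had 64.2 and 45.3 CPM in the wild type libraries against 103 and 66.4 CPM in the KPC libraries. Its groups were separate only by the small gap between wild type 1 and KPC 2, whose exact 95% Poisson intervals for counting error, 62.1 to 66.4 and 64.5 to 68.4 CPM, overlapped. The log2 fold change of Cyp51 was 0.63 ± 0.30, and it was 0.29 without KPC replicate 1 and 0.40 without wild type replicate 2. Dhcr7 (chr7:143823145-143848410, mm10), the gene of the last reduction to cholesterol on one branch of the pathway, had 245 and 105 counts in wild type and 783 and 577 in KPC, or 4.66 and 4.70 CPM against 13.3 and 8.51 CPM. The wild type libraries were nearly equal, both KPC libraries were higher, and the log2 fold change of 1.22 ± 0.30 (SE) was the largest of the 28. Its edgeR adjusted p was 0.425 and its DESeq2 adjusted p 0.0385, and over the other alternatives its adjusted p ran from 0.208 to 1.00 and its log2 fold change was lowest, at 0.87, without KPC replicate 1. Ebp, the sterol isomerase gene, gave 20.8 and 27.9 CPM in the wild type libraries against 37.7 and 37.3 CPM in the KPC libraries (log2 fold change 0.62 ± 0.21). Here the 2 KPC libraries were alike. The demethylation genes Nsdhl and Hsd17b7 and the desaturase gene Sc5d overlapped between groups, with log2 fold changes of -0.04 ± 0.23, 0.18 ± 0.43 and 0.35 ± 0.28, and in Nsdhl and Hsd17b7 the lowest library was KPC 2.

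**Figure D2:**
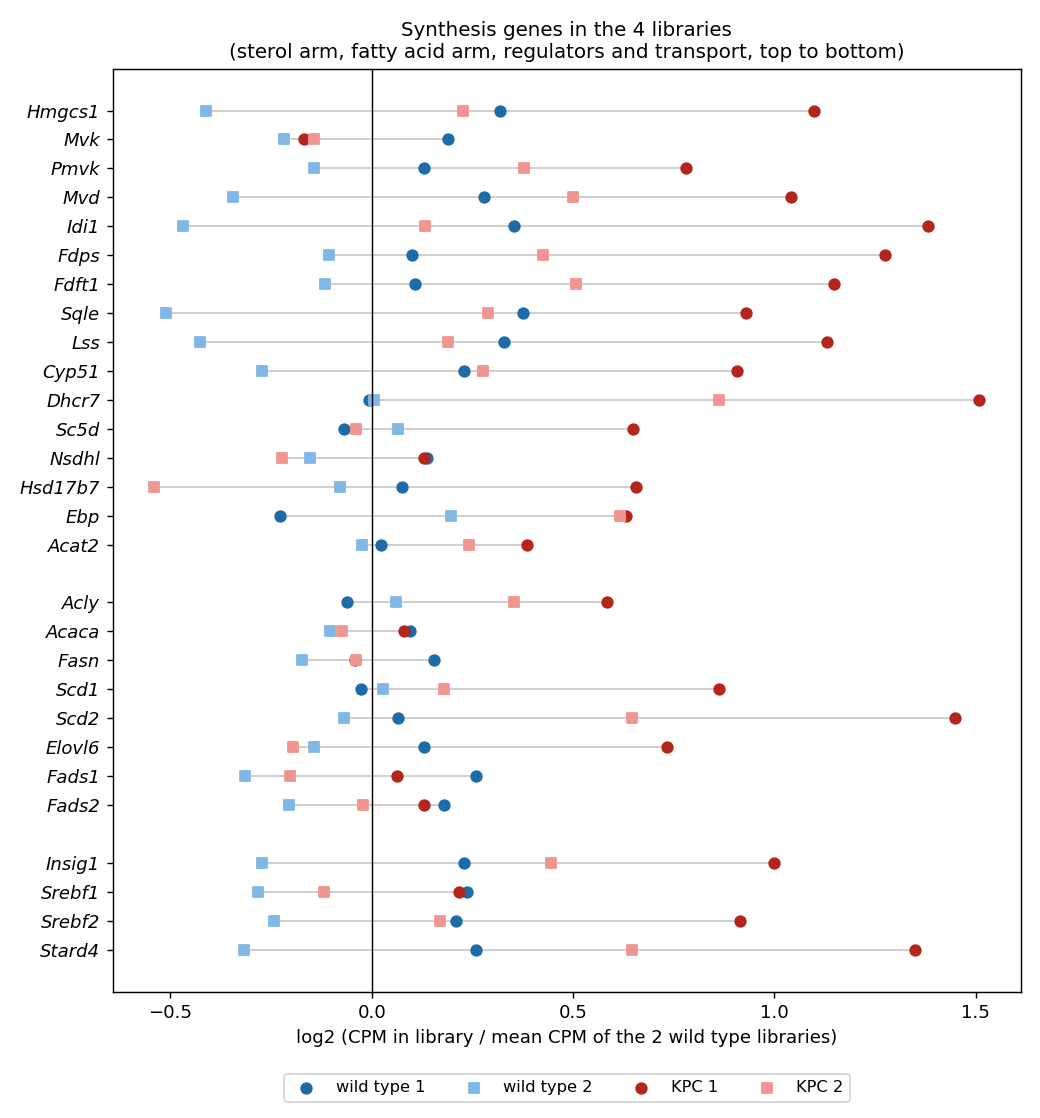
Level of each of the 28 genes in each library as log2 of its CPM over the mean CPM of the 2 wild type libraries; circles are replicate 1, squares replicate 2, and grey lines span the 4 libraries. KPC 1 (dark red circles) is the highest library for 14 of 16 sterol genes, while KPC 2 (light red squares) lies near wild type 1 (dark blue circles) for many.

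In the fatty acid arm, the mean levels of the early supply gene Acly and of Scd1 and Scd2 were higher in KPC, while the carboxylase and synthase genes were near level. Acly, whose product makes cytosolic acetyl-CoA from citrate, had 57.0 and 62.0 CPM in the wild type libraries against 89.2 and 76.1 CPM in the KPC libraries, a log2 fold change of 0.47 ± 0.18 (SE; edgeR adjusted p = 0.571). Fasn, the fatty acid synthase gene, had 78.9 and 62.8 CPM in the wild type libraries against 68.8 and 69.0 CPM in the KPC libraries, shown as an example chosen after its values were seen. Its KPC libraries lay between the wild type libraries, and the log2 fold change of -0.04 had a 95% interval of -0.53 to 0.45. Acaca, the acetyl-CoA carboxylase gene of the rate-limiting step, was within a factor of 1.15 over all 4 libraries, with a log2 fold change of 0.00 (below 0 with upper quartile scaling, limma voom and the stricter low-count filter) and an interval of -0.47 to 0.48.

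Scd2 (chr19:44293676-44306864, mm10) had the highest level per kilobase of exon among the 28 genes, 42.9 CPM per kilobase. This stearoyl-CoA desaturase gene had 156 and 142 CPM in the wild type libraries against 407 and 233 CPM in the KPC libraries, a log2 fold change of 1.10 ± 0.31 (SE; edgeR adjusted p = 0.497). Scd1 (chr19:44394451-44407709), its neighbour, gave 48.6 and 50.5 CPM in the wild type libraries against 90.1 and 56.1 CPM in the KPC libraries (0.56 ± 0.27). For both, the wild type libraries were close together and the KPC libraries were higher and far apart. Without KPC replicate 1 the log2 fold change was 0.65 for Scd2 and 0.19 for Scd1. The elongase gene Elovl6 overlapped between groups (0.34 ± 0.36). Fads1 and Fads2, which encode the desaturases of polyunsaturated fatty acids, also overlapped, with log2 fold changes of -0.07 (95% interval -0.74 to 0.61) and 0.05 (-0.49 to 0.60). Thus the genes of the desaturation of saturated chains and those of polyunsaturated chains had different values, a difference that was not tested.

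Of the 4 regulators and carriers none passed edgeR's test, Insig1 and Stard4 were higher in both KPC libraries, and Srebf2 and Srebf1 overlapped between groups. Srebf2 had 46.4 and 33.9 CPM in the wild type libraries against 75.7 and 45.1 CPM in the KPC libraries (log2 fold change 0.59 ± 0.32); KPC 1 alone was above the wild type range. Srebf1 had 43.0 and 30.0 CPM in the wild type libraries against 42.4 and 33.6 CPM in the KPC libraries, with both KPC values inside the wild type range and a log2 fold change of 0.06 (95% interval -0.61 to 0.72; -0.01 with upper quartile scaling). Insig1, which encodes a retention protein that SREBP itself induces, had 43.7 and 30.9 CPM in the wild type libraries against 74.5 and 50.7 CPM in the KPC libraries (0.75 ± 0.29, edgeR adjusted p = 0.579). Stard4, the gene of a cytosolic sterol carrier, had 14.7 and 9.88 CPM in the wild type libraries against 31.3 and 19.3 CPM in the KPC libraries (1.04 ± 0.34, edgeR adjusted p = 0.541). Without KPC replicate 1 the log2 fold changes were 0.45 for Insig1, 0.65 for Stard4 and 0.18 for Srebf2, and the difference between Srebf2 and Srebf1 was not tested.

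The libraries within each group differed as well, with KPC 1 high and wild type 2 low for most sterol genes. KPC 1 was the highest library for 14 of 16 sterol genes, against 25.5% of all rows, for 4 of 8 fatty acid genes and for Insig1, Srebf2 and Stard4. Wild type 2 was the lowest for 11 of 16 sterol genes and 5 of 8 fatty acid genes, against 26.4% of rows, while KPC 1 was the lowest for 0 of 28 against 25.8%. KPC 2 was the highest for 0 of 28 against 19% of rows, and the lowest for 3 of 28 (Nsdhl, Hsd17b7 and Elovl6) against 18.9%. Wild type 2 was also the library with the fewest counts. KPC 2 exceeded wild type 1 in 9 of 16 sterol genes, with a median log2 ratio of 0.04, and in 3 of 8 fatty acid genes, with a median of -0.18; over all rows it did so in 48.7%. In the other pairings of a KPC with a wild type library the sterol genes were mostly higher in KPC: KPC 1 exceeded wild type 1 in 14 of 16 (median log2 ratio 0.74) and KPC 2 exceeded wild type 2 in 13 of 16 (0.54). The mean log2 CPM of the sterol arm, centred over the 4 libraries, was lowest in wild type 2 (-0.45), close together in wild type 1 (-0.11) and KPC 2 (-0.03), and highest in KPC 1 (0.58). KPC 1 and KPC 2 therefore differed by 0.61, more than the 0.56 between the group means. The fatty acid arm kept the order of the sterol arm at the ends, with -0.04 and -0.25 in wild type and 0.34 and -0.06 in KPC, so that KPC 2 lay between the wild type libraries. Subtracting the fatty acid arm from the sterol arm within each library left -0.07 and -0.19 in wild type and 0.24 and 0.03 in KPC, with no overlap; 2 libraries against 2 cannot reach p = 0.05 by permutation, and this difference has no test.

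Leaving out single libraries moved the medians. Without KPC replicate 1 the sterol median was 0.27 with 12 of 16 genes positive, and the fatty acid median was -0.02 with 3 of 8 positive. The sterol median was 0.41 without wild type replicate 2, 0.94 without wild type replicate 1 and 0.91 without KPC replicate 2. The fatty acid median was 0.06 without wild type replicate 2, 0.34 without wild type replicate 1 and 0.35 without KPC replicate 2. The sterol median stayed above the fatty acid median in all 4 of these fits, by 0.29 (without KPC replicate 1) to 0.60 (without wild type replicate 1). Each of these fits leaves 1 group with a single library, which is assumed to vary like the other group.

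**Figure D3:**
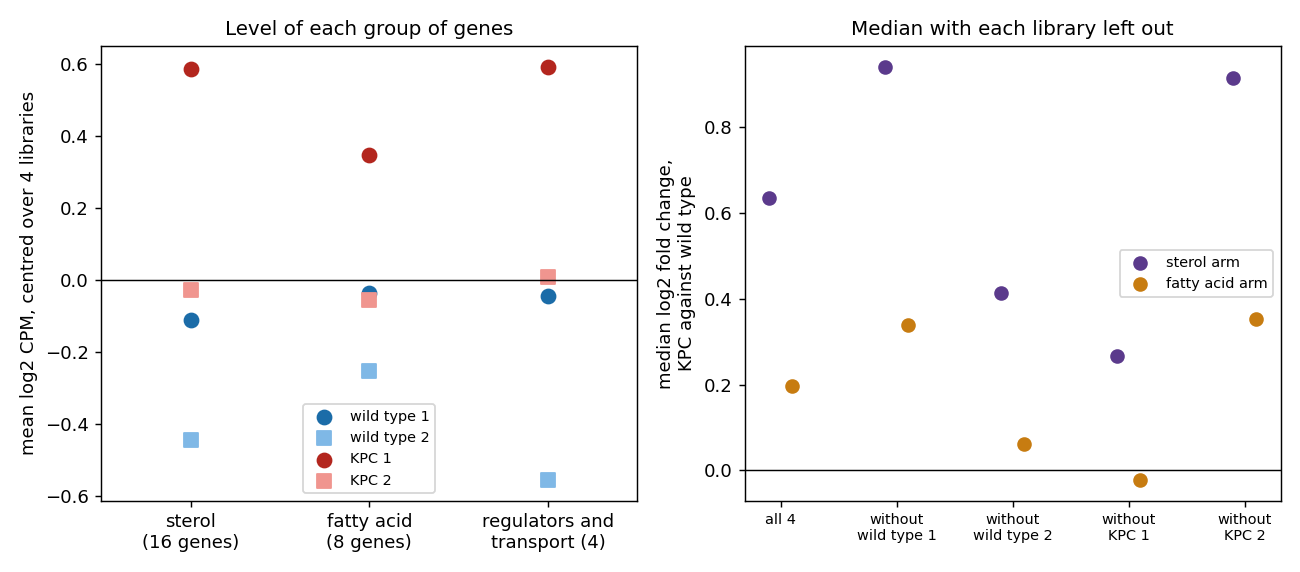
Left, mean log2 CPM of each gene group in each library, centred over the 4 libraries; right, median log2 fold change of the sterol and fatty acid arms with all 4 libraries and with each left out. KPC 1 stands at 0.58 for the sterol arm while KPC 2 and wild type 1 lie near 0, and without KPC 1 the sterol median is 0.27 and the fatty acid median -0.02.

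Other genes of these pathways, from lists chosen with earlier results known, followed the members only in part. Of 12 further genes on a sterol synthesis list 6 were positive, against 48.8% of all rows, and 6 negative (median 0.02). Beside synthesis enzymes the list holds the electron carrier genes Por, Fdx1, Cyb5b and Cyb5r3 and the mitochondrial thiolase gene Acat1. Their log2 fold changes were -0.08, -0.04, 0.63, -0.20 and -0.27 in that order. Among the 12 genes 4 were separate and higher (20.6% of all rows were) and 1 separate and lower (20.5% of all rows). After adjustment 0 passed edgeR, and 1 had an unadjusted edgeR p under 0.05, which was higher (4.73% of all rows). The methyl oxidase gene Msmo1, listed under its older symbol Sc4mol, had 54.2 and 37.4 CPM in the wild type libraries against 107 and 51.3 CPM in the KPC libraries. Cyb5b (78.0 and 98.4 against 160 and 112 CPM) and the isoprenoid synthase gene Ggps1 (6.81 and 7.92 against 11.4 and 9.19 CPM) were also among the genes of smallest p in that list. Tm7sf2, the gene of a sterol reductase, was separate and higher (log2 fold change 0.44), and Cyb5r3, the gene of a cytochrome b5 reductase, was the separate and lower gene (-0.20); both are named after their values were seen. Lbr, Aacs, Acat1, Acat3, Fdx1 and Por overlapped between groups, with log2 fold changes from -0.27 (Acat1) to 0.07 (Lbr).

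Of 20 genes that control SREBP or handle sterols 14 were positive, against 48.8% of all rows, with a median of 0.08. In this list 3 were separate and higher against 20.6% of all rows, and 3 separate and lower against 20.5%. An unadjusted edgeR p under 0.05 was reached by 2, both higher, against 4.73% of all rows. Npc1, which exports cholesterol from lysosomes, gave 17.7 and 16.9 CPM in the wild type libraries against 41.9 and 25.2 CPM in the KPC libraries (0.96 ± 0.29). Abca1, the cholesterol efflux pump gene, gave 4.64 and 4.92 against 7.77 and 10.7 CPM (0.95 ± 0.26), and here KPC 2 was the higher KPC library. Lipa, the lysosomal lipase gene, had 24.3 and 24.0 against 29.9 and 30.6 CPM, and the lipoprotein receptor gene Scarb1 24.6 and 19.7 against 17.3 and 16.4 CPM. The SREBP escort and protease genes Scap, Mbtps1 and Mbtps2 and the NF-Y subunit genes Nfya, Nfyb and Nfyc had log2 fold changes between -0.05 and 0.09.

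Of 29 tested genes of fatty acid and lipid synthesis 20 were positive, against 48.8% of all rows, with a median of 0.20. In this list 10 were separate and higher against 20.6% of all rows, and 1 was separate and lower against 20.5%. At an unadjusted edgeR p under 0.05 there were 4 higher genes, against 4.73% of all rows, and 1 lower gene, against 3.94%. The lower gene was Acacb, which encodes the mitochondrial acetyl-CoA carboxylase that restrains fatty acid oxidation. It had 44.0 and 75.9 CPM in the wild type libraries against 17.6 and 22.4 CPM in the KPC libraries, a log2 fold change of -1.58 ± 0.33 (SE; edgeR adjusted p = 0.362), beside 0.00 for Acaca. Acacb was the 1 gene of these 3 lists that DESeq2 called, against 1.44% of all rows called higher and 1.28% lower. The fatty acid activating gene Acsl3 (10.6 and 8.94 against 25.0 and 15.9 CPM), Mid1ip1, whose product promotes the polymerisation of acetyl-CoA carboxylase (27.3 and 28.8 against 38.4 and 39.4 CPM), and the dehydratase gene Hacd2 (6.32 and 8.01 against 12.1 and 10.6 CPM), listed as Ptplb, were higher in both KPC libraries. Thrsp was too low to be tested.

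**Figure D4:**
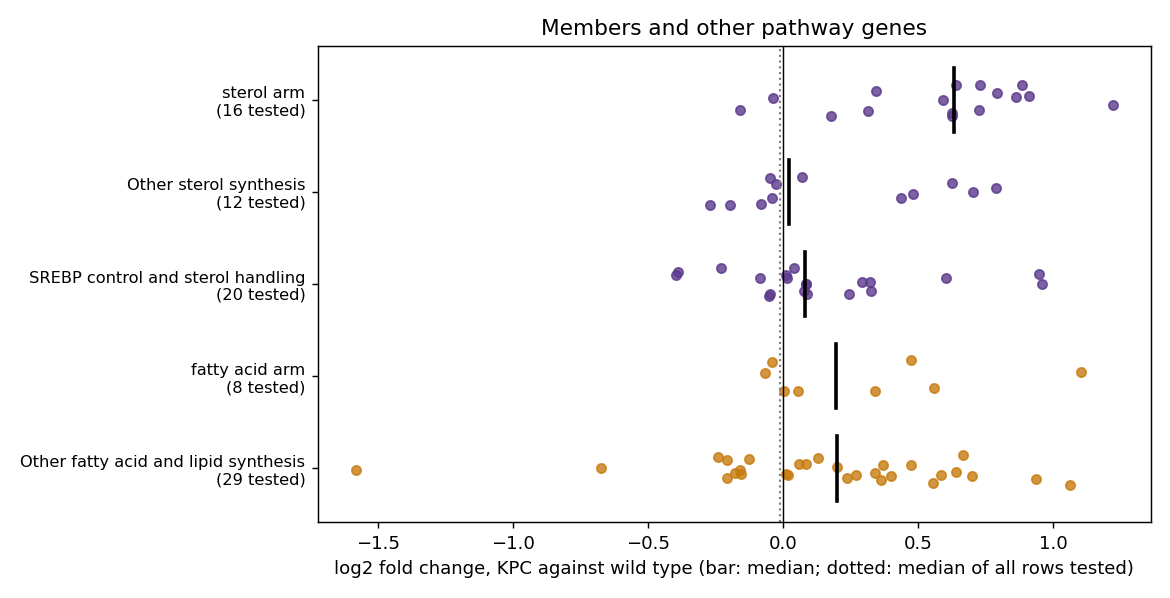
Log2 fold change of KPC against wild type for the members of both arms and for 3 lists of other pathway genes (points, spread vertically for visibility); bars are list medians and the dotted line is the median of all rows tested. The sterol arm has a median of 0.63, the other lists lie between 0.02 and 0.20, and Acacb is the point at -1.58.

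Some counts are shared with other genes, since rows overlap on the genome and some genes have near-identical copies, and whether the counting used strand is not given in the sources used here. Fdft1 overlaps 766 bases of Ctsb, a lysosomal protease gene with 284 and 474 CPM in the wild type libraries against 822 and 823 CPM in the KPC libraries, and 17.5% of the 36-base words of Fdft1 transcripts also occur in Ctsb. Lss overlaps 11267 bases of 4930483K19Rik (log2 fold change 0.75), and Mvd lies inside the long interval Gm20388 (-0.08). The row of 4930483K19Rik had 551 and 139 counts in wild type and 1100 and 650 in KPC, beside 667, 168, 1301 and 781 for Lss. In all, 9 of the 28 rows overlap another row. The pseudogene Gm6781, which shares 12.8% of the words of Fdft1, had 8.77 and 5.10 against 17.5 and 8.37 CPM, with wild type 1 above KPC 2. How much of the Fdft1 difference comes from Ctsb reads was not tested. Fdps shares 14.8%, 8.40% and 5.42% of its words with 3 pseudogenes in the tables, Gm3571, Gm5873 and Gm8163. It also shares 24.3% with Gm43738, which has no row of that name. The 3 pseudogenes had log2 fold changes of 0.89, 0.98 and 0.96 beside 0.91 for Fdps. Gm3571 had 4352 and 1619 counts in wild type and 10796 and 7044 in KPC, beside 5051, 1862, 12755 and 8168 for Fdps. The same reads may be counted in these rows, so their fold changes may not be independent of that of Fdps. Acat2 shares 42.3% of its words with Acat3 (log2 fold change -0.05) and 12.6% with Tcp1 (-0.04), Acaca 31.0% with the pseudogene Gm5182, which has no row of that name, and Idi1 18.2% with Gm13502. Hmgcs1 shares 10.6% of its words with Gm48342, which has no row of that name. Scd1 and Scd2 share under 5% of their words with each other. The values of Fdft1, Fdps, Acat2, Idi1, Acaca, Lss and Hmgcs1 are uncertain to that extent.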

How the data were processed

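Poly(A) RNA was sequenced as 50-base single reads per the labels. Where a row held a count of 1, however, the most frequent number of covered bases was 37 (82.8% of such rows). The reason for this shorter length was not tested. The deposited tables of the authors give, for each of 38921 gene intervals, a read count, the number of covered bases, the interval length and the fraction of bases covered; only the counts were tested. The intervals span whole genes, introns included, so intronic reads and overlapping genes can add to a count. Tools listed per the submitters' processing notes were TopHat2 2.0.3, bedtools, SAMtools 0.1.18 and FastQC 0.10.1, with build mm10 (GRCm38); settings are not given in the sources used here. Rows passing filterByExpr (minimum count 10), 23046 in all, were scaled by TMM and tested across all rows with edgeR 4.0.16 (R 4.3.3; glmQLFit and glmQLFTest, KPC against wild type, Benjamini-Hochberg adjustment, threshold 0.05). All comparisons rest on 2 libraries per group. Poisson and fold change intervals are at 95%, and the Poisson ones cover counting error only. Alternatives were DESeq2 1.42.0, limma 3.58.1 voom, other scalings and low-count filters, counts summed by symbol, a block for replicate number, and fits lacking 1 library each. Members and lists were chosen with earlier results of these data known. Values by library are given for members with an unadjusted p under 0.05 or no overlap, for the 4 regulators, and for the 4 genes of smallest p with a mean of at least 1 CPM in each list of other genes; exceptions are named, and 1 gene of the sterol list is not reported here. The edgeR fit was also run on simulated counts with known fold changes.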

Additional observations from a re-analysis of the deposited data

How the results depend on the processing

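edgeR called 0 genes in either direction with other scalings, other low-count filters and summed symbols, and limma voom also called 0, while DESeq2 called 333 higher and 294 lower, among them 1 sterol gene, Dhcr7 (log2 fold change 1.22). Leaving out single libraries gave 0 to 429 genes called higher and 0 to 406 lower, the highest counts without wild type replicate 2; a lone library is there assumed to vary like the other group. Over the same fits the sterol median ran from 0.27 to 0.94, the fatty acid median from -0.0220 to 0.35, the number of positive fatty acid genes from 3 to 8, and the gap between the medians from 0.29 to 0.60. The lowest value of each of these was without KPC replicate 1. Replicate numbers are shared between groups with no stated common animal or batch, and the replicate differences correlated at 0.14 across genes; with the replicate block 0 genes were called, and the medians were 0.66 and 0.17. Direction changed for Acaca (-0.0652 with upper quartile scaling, -0.00677 with the stricter filter, -0.00511 with voom), Fads2 (-0.0148) and Srebf1 (-0.0150), the last 2 with upper quartile scaling. Leaving out single libraries took log2 fold changes across 0 for Mvk (-0.34 to 0.0654), Sc5d (-0.0318 to 0.64), Nsdhl (-0.21 to 0.13), Hsd17b7 (-0.53 to 0.65), Acaca (-0.0889 to 0.11), Fasn (-0.19 to 0.14), Elovl6 (-0.19 to 0.73), Fads1 (-0.32 to 0.25), Fads2 (-0.12 to 0.26) and Srebf1 (-0.18 to 0.34). Under all alternatives run, 343 of the single-gene values kept direction and side of the threshold, and 20 changed direction.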
